A study of Rattus norvegicus with 2 samples.

Results

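Metallothioneins and zinc handling were followed through 6 genes in cultured rat neural precursor cells. They are the metallothionein genes Mt1 (NM_138826), Mt2A (NM_001137564) and Mt3 (NM_053968), the zinc-sensing transcription factor gene Mtf1 (NM_001108677), the zinc exporter gene Slc30a1 (NM_022853) and the zinc importer gene Slc39a10. The set was drawn up after Mt1 and Mt2A had been seen among the highest genes of these arrays, so the ratios of the members are a description and were not tested. By RefSeq accession, 5 of the 6 were found among 15443 genes with a probe. All 5 were kept, of 10852 genes on the array for bFGF withdrawal and of 10241 genes on the other array. No probe was matched to Slc39a10, and its level was not analysed here.

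The cells were primary neural stem cells from the cortex of SD rat embryos at day 14, expanded in N2 medium with 10 ng/mL bFGF, a mitogen of neural precursors. They were transiently transfected with 4 µg of plasmid, and the labels name no sorting for EGFP and no number of cultures. Vector cells without bFGF carried MSCV-IRES-EGFP alone and spent 2 days in NB medium, so loss of bFGF and change of medium cannot be told apart. rBcl-2 cells with bFGF carried rBcl-2-MSCV-IRES-EGFP, which adds the anti-apoptotic protein Bcl-2 of rat, and stayed in N2 medium with bFGF. Vector cells with bFGF carried MSCV-IRES-EGFP alone, also stayed in N2 medium with bFGF, and are the labelled control of both. Total RNA was hybridised to 2 two-colour Agilent arrays on 1 slide. On the withdrawal array, cells of vector without bFGF (red, Cy5) were set against vector with bFGF (green, Cy3), which asks what changes on differentiation. The array labelled Bcl-2 set rBcl-2 with bFGF (red) against a green channel labelled vector with bFGF, which asks what added Bcl-2 changes under proliferation. With 1 array per comparison and 0 dye swaps, no difference below has a replicate check.

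The direction of the ratios on the array labelled Bcl-2 is not settled, which bears on every value below. Over all gene spots the log2 ratios of the arrays, which share the labelled control, correlated at r = -0.67, and by the deposited Feature Extraction ratios at r = -0.12. For 27259 spots that were well above background in each of the 4 channels, log2 levels were set against each other channel by channel. Differences between both green channels, labelled as the same cells, had an SD of 0.40. For the green channel of the second array minus vector without bFGF the SD was 0.14, and for rBcl-2 with bFGF minus the first array's vector with bFGF it was 0.15. Between both red channels, labelled as different cells, it was 0.38. The green channel of the second array therefore goes against its label, and it is called here the green channel labelled vector with bFGF. Whether the red channel of the array labelled Bcl-2 holds rBcl-2 cells cannot be told from these values. It is named below as labelled. Ratios are red over green as labelled, and with the sign turned every higher value of that array becomes lower. The log2 ratio of Bcl2 itself was 0.39 for withdrawal and -0.02 on the array labelled Bcl-2, and whether its probe lies in the transfected sequence is not known here. The precursor genes Nes, Sox2, Vim, Pax6 and Hes1, picked for this check with earlier values known, were well above background in all 4 channels (5 of 5). So were 27259 of 42877 gene spots, and this does not tell the channels apart.

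Metallothioneins are small cysteine-rich proteins that bind zinc and copper, and are known for buffering free zinc and for taking up reactive oxygen species. In brain, the products of Mt1 and Mt2A are found mainly in glia, while Mt3 is the brain isoform, first described as a growth inhibitory factor for neurons. MTF1 is the transcription factor that senses a rise of free zinc through its zinc fingers. It then binds metal response elements in the promoters of metallothionein genes and of Slc30a1, whose product exports zinc across the plasma membrane. Exporters of the SLC30 family (ZnT) lower cytosolic zinc and importers of the SLC39 family (ZIP) raise it. SLC39A10 is a plasma membrane importer whose gene MTF1 holds down in mouse cells.

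The promoters of the metallothionein members and of Slc30a1 are printed because they hold letter matches to the core of the metal response element. Any part of MTF1 in the ratios of Mt1 and Mt2A was not tested. Each runs from 250 bases before to 50 bases after the annotated start, 5′ to 3′ along the gene, from RefSeq on build GRCr8. Capitals mark matches to the core of the metal response element, searched as TGCACNC and TGCGCNC on both strands.
Mt1 (chr19:10832926-10833225, - strand): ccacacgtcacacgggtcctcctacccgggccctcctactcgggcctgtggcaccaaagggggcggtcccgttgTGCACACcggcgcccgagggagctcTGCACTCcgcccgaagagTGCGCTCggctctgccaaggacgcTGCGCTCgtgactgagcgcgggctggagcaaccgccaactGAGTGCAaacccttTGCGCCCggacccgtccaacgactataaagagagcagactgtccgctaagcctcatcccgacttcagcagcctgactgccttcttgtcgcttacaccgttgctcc
Mt2A (chr19:10838659-10838958, - strand): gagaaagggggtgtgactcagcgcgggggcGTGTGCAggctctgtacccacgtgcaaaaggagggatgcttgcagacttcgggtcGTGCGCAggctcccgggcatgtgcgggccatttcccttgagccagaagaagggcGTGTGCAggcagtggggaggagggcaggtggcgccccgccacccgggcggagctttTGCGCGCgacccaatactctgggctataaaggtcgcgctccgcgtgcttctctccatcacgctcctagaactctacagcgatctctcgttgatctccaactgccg
Mt3 (chr19:10856031-10856330, - strand): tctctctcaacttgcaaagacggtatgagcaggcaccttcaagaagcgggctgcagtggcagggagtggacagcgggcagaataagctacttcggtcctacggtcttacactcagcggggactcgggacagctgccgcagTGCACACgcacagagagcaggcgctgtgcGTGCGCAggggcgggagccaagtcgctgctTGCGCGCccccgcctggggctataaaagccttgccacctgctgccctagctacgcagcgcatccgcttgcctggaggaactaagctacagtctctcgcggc
Slc30a1 (chr13:106021769-106022068, + strand): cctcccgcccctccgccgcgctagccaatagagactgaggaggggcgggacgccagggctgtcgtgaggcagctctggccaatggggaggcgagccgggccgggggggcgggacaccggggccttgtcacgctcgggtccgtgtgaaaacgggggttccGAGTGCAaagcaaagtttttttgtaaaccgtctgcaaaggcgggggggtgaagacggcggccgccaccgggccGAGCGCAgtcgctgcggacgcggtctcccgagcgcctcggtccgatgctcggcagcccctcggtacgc

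The Mt1 promoter held 6 separate matches, the Mt2A promoter 4, the Mt3 promoter 3, and the promoters of Slc30a1 and Mtf1 held 2 each. The core was in 24.2% of 33469 rat promoters of the same length, with at least 2 matches in 5.39%. At least 3 matches were in 1.13%, at least 4 in 0.257% and at least 6 in 0.0299%. The first base of the match nearest the start lay 55 bases before it in both Mt1 and Mt2A and 51 bases before it in Mt3. In Mt1 the matches ran from 176 to 55 bases before the start and 5 of the 6 were on the strand of the gene. In Mt2A they ran from 220 to 55 bases before the start and 3 of the 4 were on the other strand. Mt4, the fourth gene of the cluster, held 1 match, and no match was found in the Slc39a10 window. A match describes letters and is not a measured binding site. The core of the antioxidant response element, TGACNNNGC on both strands, was found once each in the promoters of Mt1, Mt2A and Slc30a1 and in 12.1% of all promoters. The Mtf1 promoter held 2 such matches, and 0.875% of all promoters held at least 2.

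**Figure D1:**
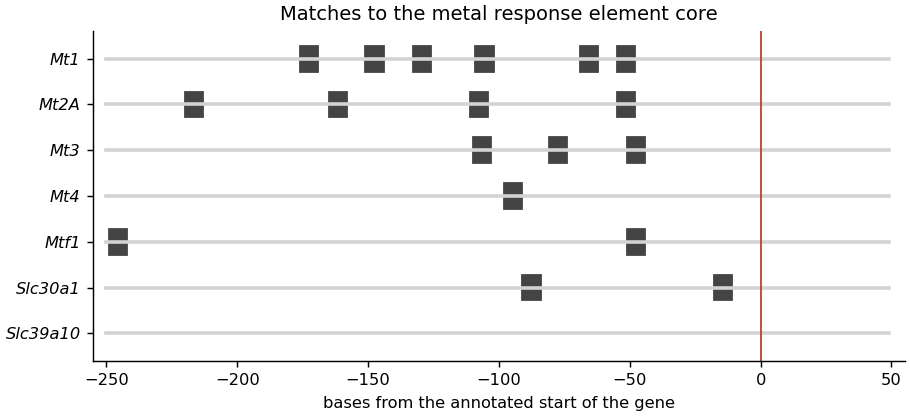
Positions of matches to the metal response element core (dark boxes, 7 bases wide) in the 300-base promoters of the metallothionein and zinc genes, with bases from the annotated start on the horizontal axis and the start as a vertical line. Mt1 holds 6 matches, Mt2A 4, Mt3 3 and Slc39a10 none.

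Other genes with several such matches mostly lay within 2-fold. The withdrawal array kept 39 genes with at least 4 matches, and 4 of them were at least 2-fold apart: Mt1, Mt2A, Ankrd13d at 1.27 and Camk2b at -1.02, the last pair named after their values were seen. Without Mt1 and Mt2A this was 5.41% of 37 genes, and of 5628 genes with no match it was 2.61%. On the array labelled Bcl-2 it was 2.86% of 35 genes with at least 4 matches, Ankrd13d at -1.32 alone, and 2.24% of 5319 genes with none.

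Mt1, the general inducible metallothionein, was bright where vector cells had lost bFGF. Its net signal, spot minus local background, was 16907 in vector without bFGF, against 1445 in vector with bFGF, on the withdrawal array. On the array labelled Bcl-2 it was 3129 in rBcl-2 with bFGF, against 6785.5 in the green channel labelled vector with bFGF. After normalisation the log2 levels were 13.61 in vector without bFGF, 10.88 in vector with bFGF, 11.07 in rBcl-2 with bFGF and 13.41 in the green channel labelled vector with bFGF. Thus 2 of the 4 channels were high and 2 low, and the green channels, labelled as the same control, lay on opposite sides. The log2 ratio was 2.73 on the withdrawal array, a 6.65-fold difference and rank 4 of 10852 genes from the highest. On the array labelled Bcl-2 it was -2.34, or 2.34 with the sign turned, a 5.05-fold difference and rank 11 of 10241 genes from the lowest. Mt1 rests on 1 spot. The RefSeq table lists 6 genes whose symbol begins with Mt1, of which 4 are pseudogenes and 1 has a probe here. Whether that probe also reads the others was not checked, so their signal cannot be set apart.

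Mt2A, the companion isoform induced by the same metals and hormones, followed Mt1 in all 4 channels. Its log2 levels were 13.70 in vector without bFGF, 11.23 in vector with bFGF, 11.17 in rBcl-2 with bFGF and 13.72 in the green channel labelled vector with bFGF. The high pair of channels differed by 0.03 and the low pair by -0.05. The log2 ratio was 2.47 on the withdrawal array (5.54-fold, rank 9 from the highest) and -2.55 on the array labelled Bcl-2 (5.85-fold, rank 4 from the lowest, or 2.55 with the sign turned). This value is the median of 2 probes that agree in sign and not in size. The probe printed 10 times had a log2 ratio of 2.92 ± 0.04 (SD over 10 spots of 1 hybridisation) on the withdrawal array, with a lowest spot of 2.86 and a highest of 2.98. Its net signal ran from 21090 to 33900 in vector without bFGF, with a median of 30996, and from 1619.5 to 2450 in vector with bFGF, with a median of 2292. On the array labelled Bcl-2 this probe had -3.08 ± 0.02 (SD over 10 spots), from -3.12 to -3.05. Its net signal there ran from 2721 to 4540 in rBcl-2 with bFGF and from 9729 to 15516 in the green channel labelled vector with bFGF. The probe printed once had 2.01 on the withdrawal array and -2.02 on the array labelled Bcl-2. The gap between the probes was wider than the spread between spots of the repeated probe, which are prints within 1 hybridisation.

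Mt3, the brain metallothionein, differed far less. Its log2 levels were 16.59 in vector without bFGF, 16.11 in vector with bFGF, 16.26 in rBcl-2 with bFGF and 16.69 in the green channel labelled vector with bFGF. The order of the channels was that of Mt2A except that rBcl-2 with bFGF lay above vector with bFGF. The log2 ratio was 0.47 on the withdrawal array (1.39-fold) and -0.43 on the array labelled Bcl-2 (1.35-fold, or 0.43 with the sign turned), neither at 2-fold. Net signals were 145526 in vector without bFGF, against 50675 in vector with bFGF, and 138296 in rBcl-2 with bFGF, against 57247.5 in the green channel labelled vector with bFGF. They were not saturated, and red was the brighter dye on both arrays, so the negative ratio exists only after normalisation. With median centring in place of loess the ratios were 0.98 and -0.02.

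**Figure D2:**
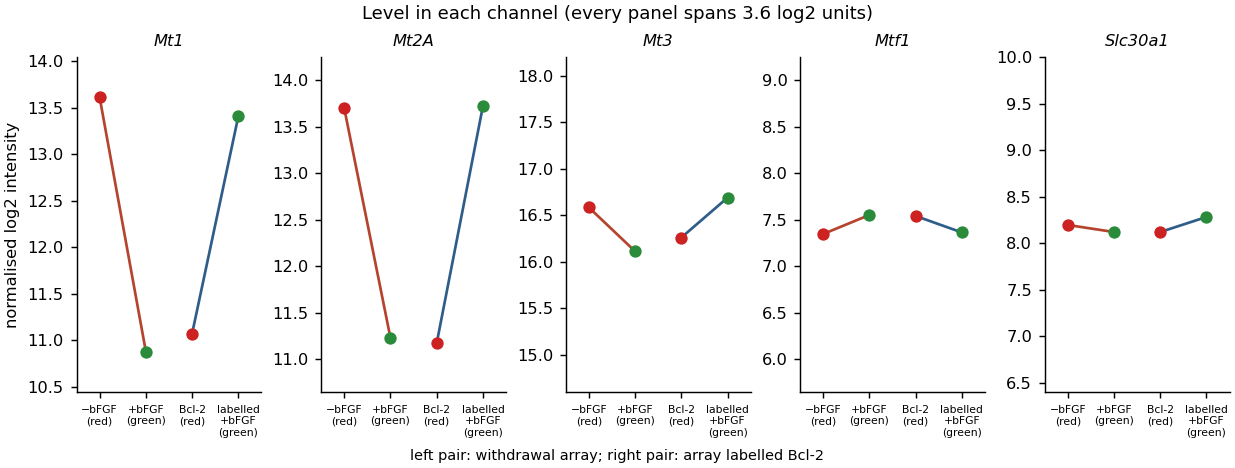
Normalised log2 intensity of each measured gene in the 4 channels, red channels as red points and green channels as green points, with the channels of an array joined by a line; every panel spans the same range. Mt1 and Mt2A are high in vector without bFGF and in the green channel labelled vector with bFGF, while Mtf1 and Slc30a1 are nearly level.

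Mtf1, the zinc sensor that drives metallothionein genes, was dim and nearly level. Its log2 levels were 7.35 in vector without bFGF, 7.55 in vector with bFGF, 7.54 in rBcl-2 with bFGF and 7.36 in the green channel labelled vector with bFGF. The order of these channels was the reverse of that of Mt1 and Mt2A as to which pair was high. The log2 ratio was -0.20 ± 0.10 (SD over 9 spots) on the withdrawal array, where all 9 spots lay below 0. It was 0.18 ± 0.12 (SD over 9 spots) on the array labelled Bcl-2, or -0.18 with the sign turned, where 8 spots lay above 0 and 1 below. The tenth spot of the probe was flagged as an outlier on each array and lay apart, at 0.47 and 0.67. Net signals had a median of 110 in vector without bFGF, against 133 in vector with bFGF. With an offset of 10 in place of 50 the ratios were -0.28 for withdrawal and 0.22 on the other array, and the deposited Feature Extraction ratios were -0.55 and 0.54. The cause of this gap was not tested.

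Slc30a1, the exporter gene that MTF1 also activates, did not share the metallothionein ratio. Its log2 levels were 8.20 in vector without bFGF, 8.12 in vector with bFGF, 8.12 in rBcl-2 with bFGF and 8.28 in the green channel labelled vector with bFGF. The log2 ratio was 0.08 on the withdrawal array (1.05-fold) and -0.16 on the array labelled Bcl-2 (1.12-fold, or 0.16 with the sign turned). With the Feature Extraction ratio the values were 0.04 and 0.03, so that the sign on the array labelled Bcl-2 turned. The gene rests on 1 spot per array, with net signals of 288.5 in vector without bFGF, against 199 in vector with bFGF.

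**Figure D3:**
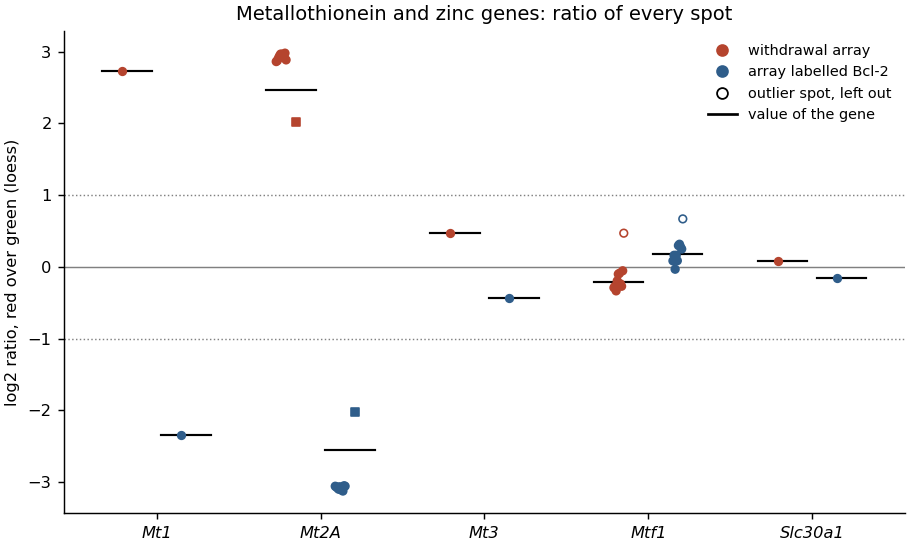
Log2 ratio of red over green (vertical axis) for every spot of the 5 measured genes on the withdrawal array (left in each pair) and the array labelled Bcl-2 (right), with a bar for the value of the gene; open points were left out, squares mark the second probe of Mt2A, and dotted lines mark 2-fold. All 10 spots of the repeated Mt2A probe lie between 2.86 and 2.98 on the withdrawal array.

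In all, 2 of the 5 measured members were at least 2-fold higher in vector without bFGF, as were 2.42% of all genes (2.89% in either direction). On the other array 2 of the 5 were at least 2-fold lower in rBcl-2 with bFGF than in the green channel labelled vector with bFGF. So were 2.00% of all genes (2.56% in either direction). Mt1 and Mt2A were chosen on these ratios, so nothing is read from those counts. Against vector with bFGF of the withdrawal array, the log2 level of rBcl-2 with bFGF differed by 0.19 for Mt1 and -0.05 for Mt2A. Set directly against each other in the red dye, rBcl-2 with bFGF minus vector without bFGF gave a log2 difference of -2.54 for Mt1, -2.52 for Mt2A, -0.32 for Mt3, 0.19 for Mtf1 and -0.08 for Slc30a1. In the authors' deposited table, the second column equals both arrays' ratios multiplied together for 100% of 28395 probes printed once, to within 0.05 (log2) once a constant shift is removed. Why the ratios were multiplied is not given in the sources used here. In the authors' deposited table this product was 1.29 for Mt1, 0.903 and 0.948 for the probes of Mt2A, 0.878 for Mt3, 0.993 for Mtf1 and 1.05 for Slc30a1, in a column with a median of 0.944. The first column of the authors' deposited table, the withdrawal ratio, was 7.004 for Mt1 and 8.20 and 4.26 for the probes of Mt2A, beside a median of 0.932.

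The rest of zinc handling was examined in a list of 32 genes that holds the metallothioneins, all SLC30 and SLC39 genes, Mtf1 and the zinc receptor gene Gpr39. Of these, 27 had a probe, and 22 were measured on the withdrawal array and 21 on the array labelled Bcl-2. Mt4, Slc30a8, Slc30a10, Slc39a2 and Gpr39 were not well above background on either array. Without the members, 17 genes were measured on the withdrawal array, with 0 at least 2-fold higher (2.42% of all genes) and 0 at least 2-fold lower (0.470% of all genes). Their median log2 ratio was -0.03, against 0.03 over all genes. On the array labelled Bcl-2, 0 of the 16 were at least 2-fold higher (0.557% of all genes) and 1 was at least 2-fold lower (2.00% of all genes), with a median of -0.10, against -0.01 over all genes. Over the whole list the medians were 0.02 and -0.14, or 0.14 for the array labelled Bcl-2 with the sign turned. With 1 array each, shifts of this size cannot be told from spread between cultures, which was not measured.

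Among exporters, 4 of 7 lay above 0 on the withdrawal array and 3 below. The lowest was Slc30a5, which loads zinc into the secretory pathway, at -0.55 on the withdrawal array and 0.33 on the array labelled Bcl-2. Slc30a4, which moves zinc into vesicles, was at -0.28 and 0.29. Slc30a2, a vesicular zinc transporter, was not well above background in green, and its direction is not settled. Its log2 ratio was 0.43, while its net signals ran the other way, with 25.5 in vector without bFGF, against 60 in vector with bFGF.

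Among importers, 4 of 11 lay above 0 on the withdrawal array and 7 below. Slc39a12, a zinc importer with high expression in brain, was at 0.73 on the withdrawal array and at -1.02 on the array labelled Bcl-2, and was the gene past 2-fold there. Its net signals were 205.5 in vector without bFGF and 102.5 in vector with bFGF on the withdrawal array. They were 62 in rBcl-2 with bFGF, against 194 in the green channel labelled vector with bFGF, so the high and low channels were those of Mt1. Slc39a8, an importer of zinc and manganese, was at 0.54 and -0.49. Slc39a14, an importer of zinc and iron, was the lowest on the withdrawal array at -0.46, with 0.13 on the other, and Slc39a6 was at -0.27 and 0.19. The Feature Extraction ratio gave other values for dim genes, in both directions. It put Slc39a12 at 2.18 on the withdrawal array and -2.15 on the array labelled Bcl-2, where an offset of 10 in place of 50 gave -1.27. On the withdrawal array it put Slc39a14 at -0.97, against -0.46, and Slc39a4 at 0.32, against 0.40. There it put Slc39a11 at 0.08, against -0.14, where the sign turned. On the array labelled Bcl-2 it put Slc39a4 at -0.56, against 0.05, where the sign turned too. By it, 4 of 22 zinc handling genes were at least 2-fold higher on the withdrawal array, Slc39a12 and Slc30a2 (1.93) beside Mt1 and Mt2A, where 8.17% of all genes were.

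**Figure D4:**
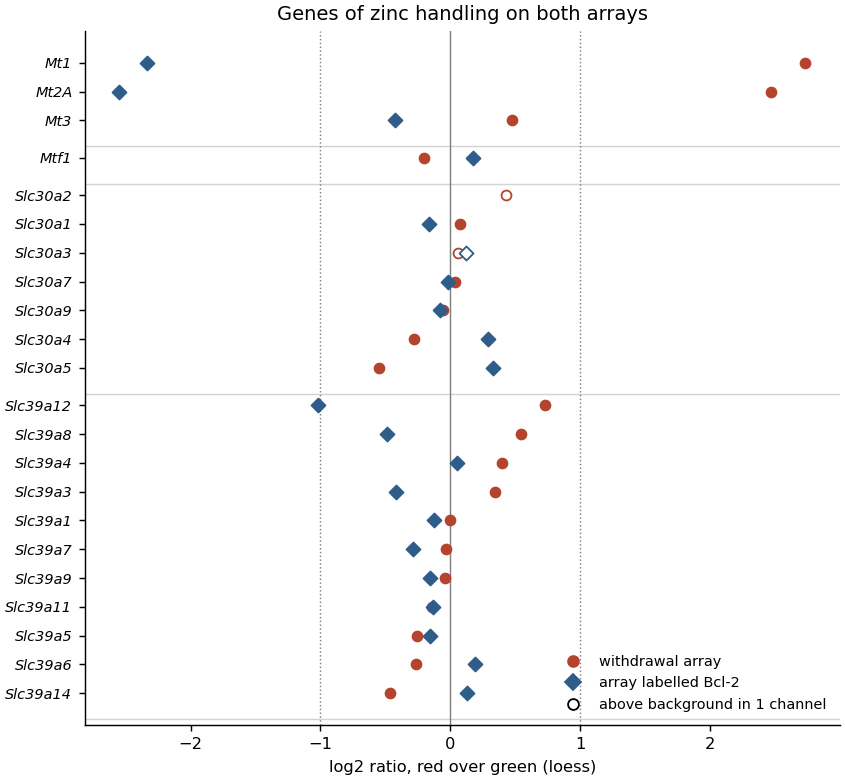
Log2 ratio of red over green (horizontal axis) of the measured zinc handling genes on the withdrawal array (circles) and the array labelled Bcl-2 (diamonds), grouped as metallothioneins, sensor, exporters and importers; open symbols were well above background in 1 channel alone, and dotted lines mark 2-fold. Mt1 and Mt2A lie past 2-fold on both arrays, and Slc39a12 at -1.02 is the other gene past it.

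Genes of other metals and of known metallothionein inducers were read beside Mt1 and Mt2A. Of 8 listed MTF1 targets, 6 were measured, and without the members 3 remained, of which 0 were at least 2-fold apart on either array (2.89% and 2.56% of all genes). Csrp1, a cytoskeletal LIM protein gene, was at 0.38 on the withdrawal array and -0.76 on the array labelled Bcl-2. Gclc, which makes the glutathione precursor, was at 0.11 and -0.06, and Selenow, a selenoprotein gene, at -0.17 and 0.09. Ndrg1 was not well above background. Of 12 measured copper genes, Mt1 and Mt2A were chosen on these ratios, and the other 10 held 1 that was at least 2-fold higher on the withdrawal array and 0 lower (2.42% and 0.470% of all genes). This was Cp, the copper carrier ceruloplasmin, at 1.13 and -1.07. Atox1, a copper chaperone, was at 0.50 and -0.45, and the lowest were Sco1 at -0.17 and the importer Slc31a1 at -0.17. The median of these 10 was 0.07 for withdrawal, against 0.03 over all genes, and -0.22 on the other array, against -0.01.

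Of 11 measured iron genes, 2 were at least 2-fold higher on the withdrawal array (2.42% of all genes) and 1 lower (0.470% of all genes), with a median of 0.22. Tf, the iron carrier transferrin, was at 1.02 and Heph, a copper-dependent ferroxidase gene, at 1.02, while Tfrc, the transferrin receptor gene, was at -1.24. On the array labelled Bcl-2, Heph was at least 2-fold lower, Tf was just inside that bound at -0.995, and Tfrc was at 1.21 (2.00% of all genes were lower and 0.557% higher by 2-fold). In the glucocorticoid response list, hormone targets like the metallothionein genes themselves, 0 of 8 measured genes were at least 2-fold apart on either array, where 2.89% and 2.56% of all genes were. Errfi1 was highest on the withdrawal array at 0.56, then Sgk1 at 0.48, and Klf9 was lowest at -0.93, then Fkbp5 at -0.34. In the heat shock and metal stress list, 2 of 7 measured genes were at least 2-fold higher on the withdrawal array and 0 lower (2.42% and 0.470% of all genes). They were the small heat shock protein genes Cryab at 2.24 and Hspb1 at 1.22, with -2.46 and -0.97 on the array labelled Bcl-2, while Hsf1, the heat shock factor, was at -0.53 and Hsph1 at -0.33 on the withdrawal array.

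**Figure D5:**
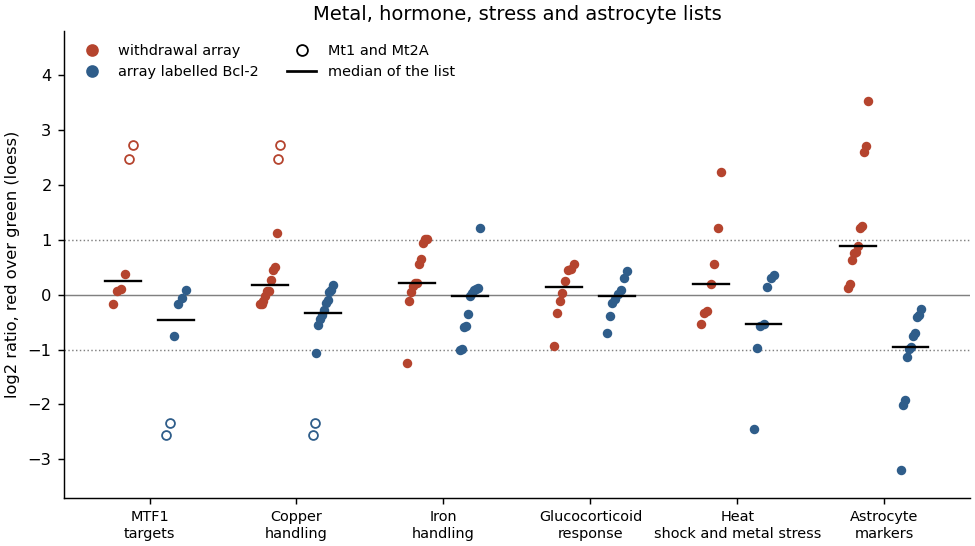
Log2 ratio of red over green (vertical axis) of each measured gene of 6 lists on the withdrawal array (left) and the array labelled Bcl-2 (right), with a bar at the median of the list, Mt1 and Mt2A included where open points show them. Cryab at 2.24 and Apoe at 3.54 lie past the dotted 2-fold lines on the withdrawal array.

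Mt1, Mt2A, Mt3 and Mt4 follow each other on chromosome 19 in the RefSeq table, and their neighbours did not share the ratio. Nup93, a nuclear pore gene next to Mt1, was at -0.14 on the withdrawal array and 0.10 on the array labelled Bcl-2. Bbs2, a cilium gene next to Mt4, was at -0.07 and 0.01. Further out, Slc12a3 was at -0.03 and -0.28, Ogfod1 at -0.29 and 0.24, and Nudt21 at -0.08 and 0.16. Within the cluster, Mt1 and Mt2A are adjacent and lie past 2-fold, Mt3 beside them does not, and Mt4 was not well above background.

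The genes most like Mt1 and Mt2A were sought by the distance between their pair of log2 ratios and the mean pair of Mt1 and Mt2A, at 2.60 and -2.44. Distances were taken over 2 arrays and 10160 genes, and genes known only by an identifier were then passed over. The nearest with an assigned symbol were Pierce1, a cilium gene, at a distance of 0.14, Cyba, an NADPH oxidase subunit gene, at 0.14, and Mgmt, a DNA repair gene, at 0.23. Cryab followed at 0.36 and Cdh6, a cadherin gene, at 0.38. Over 2 arrays such likeness is only that of size and sign.

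Markers of astrocytes, of fibroblasts and meninges, and of choroid plexus and ependyma were higher in the channels where Mt1 and Mt2A were high. Summed levels of neuron markers were higher there too, by a smaller step. All 11 measured astrocyte markers lay above 0 on the withdrawal array, with a median of 0.88, and all 11 below 0 on the array labelled Bcl-2, with a median of -0.96. Their summed log2 level over 12 genes with a probe was 15.75 in vector without bFGF, 14.41 in vector with bFGF, 14.51 in rBcl-2 with bFGF and 15.74 in the green channel labelled vector with bFGF. Apoe, a lipid carrier of astrocytes, was at 3.54 and Ndrg2 at 2.71 on the withdrawal array, while Gfap was not well above background in any channel. The summed level of 10 fibroblast and meninges markers was 13.76, 12.55, 11.98 and 13.69 in the same order of channels, and that of 8 choroid plexus and ependyma markers 10.94, 10.02, 10.02 and 10.93. Not all of their genes moved. On the withdrawal array Tagln (3.23) and Acta2 (2.19) led the fibroblast list, while Dcn (0.08) and Lum (0.04) were near 0. Foxj1 (1.95) led the choroid plexus list, and Aqp1 was at -0.02. Thy1, Kl, Clic6 and Kcnj13 were not well above background. Summed levels of 11 neuron markers were 14.49, 14.02, 14.06 and 14.42, and those of 10 oligodendrocyte lineage markers 16.24, 15.89, 16.16 and 16.17. On the withdrawal array 8 of 9 measured neuron markers lay above 0, with a median of 0.42, against 0.45 for fibroblast and meninges markers. On the array labelled Bcl-2, 5 of the 9 lay below 0, with a median of -0.15, against -1.10. Of these 9, 1 was at least 2-fold higher on the withdrawal array (2.42% of all genes), Tubb3 at 1.03, with -0.58 on the other array. Gap43 was at 0.79 and -0.92, while Elavl4 ran the other way at -0.26 and 0.25. Microglia (10.85, 10.74, 10.72 and 10.76) and endothelium and pericyte markers (9.93, 9.86, 9.84 and 9.92) were nearly level. Of 8 microglia markers, 3 (Itgam, C1qa and Ptprc) were not well above background on either array. Nor were 5 of 8 endothelium and pericyte markers (Pecam1, Cldn5, Flt1, Tek and Rgs5), so background enters these summed levels. The part of such cells in the metallothionein ratios was not tested, and in bulk RNA more cells of a type and more RNA per cell cannot be told apart.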

How the data were processed

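Total RNA of rat neural precursor cells was measured on 2 two-colour arrays. Per the file headers, the deposited scanner files hold median spot and background intensity per channel from Feature Extraction 11.5.1.1 (protocol GE2_1105_Oct12, scanner G2505C, design 028282, build rn4). Version 8.5.1.1 is the one in the submitters' processing notes. They also hold the deposited log10 ratio with its error, a deposited p-value from the spot noise model, which was not used, and flags of 0 or 1 of another kind (outlier, saturated, well above background). The authors' deposited value table holds linear ratios.

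Signals were corrected by normexp (offset 50) and normalised by loess within each array, with controls at weight 0 (limma 3.58.1, R 4.3.3). Channel levels were then scaled between arrays (Aquantile). Of 42877 gene spots, 534 and 576 outliers were left out, and 0 spots were saturated. Repeated spots were averaged per probe, probes well above background in at least 1 channel kept, and the median over probes taken per gene (Python 3.11.15, pandas 2.3.3, numpy 2.4.6). The normalisation was tested on simulated data. Accessions were named through RefSeq (GRCr8), which named 60.4% of probes. Genes counted as 2-fold had a log2 ratio of 1 or more in size, with 1 sign over kept probes. There is no test with 1 array per comparison, and the number of arrays limits the precision. Median net signals were 189 to 284.5.

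The members, lists, tests and alternatives were chosen with earlier results of these data known. Named were the members, list genes past 2-fold on either array, and the 2 highest and 2 lowest genes of each list on the withdrawal array. Of the longer lists not all such genes are printed. Also named were the 5 genes with an assigned symbol most like Mt1 and Mt2A. Alternatives were an offset of 10, median centring, the Feature Extraction ratio, the value table, other filters on dim probes, outlier spots kept, and other summaries of probes. For the array labelled Bcl-2, the second column of the value table was divided by the first and shifted by a constant. All value columns were mapped to samples.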

Additional observations from a re-analysis of the deposited data

Results flagged for a closer look

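Mt1 and Mt2A were singled out because their ratios lay past 2-fold in opposite directions on the arrays. Subtracting the withdrawal ratio from that of the array labelled Bcl-2 gave -5.07 for Mt1 and -5.02 for Mt2A (log2). With 1 array per comparison this was not tested, and it includes the step between the green channels, which are labelled as the same control.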

How the results depend on the processing

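Under all 9 alternatives, 2 members were at least 2-fold apart on each array. They were Mt1 and Mt2A, which were chosen on these ratios. Mt1 rests on 1 unflagged spot well above background in both channels. Other filters, outlier spots and other summaries of probes could therefore not change it. For the 2 probes of Mt2A the mean equals the median. Mt1 ran from 2.73 to 3.01 on the withdrawal array and from -2.52 to -2.34 on the array labelled Bcl-2, and Mt2A from 2.47 to 2.92 and from -3.08 to -2.54. The count of zinc handling genes at least 2-fold apart on the withdrawal array was 2, but 4 by the Feature Extraction ratio and 4 by the value table, which add Slc30a2 and Slc39a12; the cause was not tested. Over all genes the Feature Extraction ratio gave 887 higher and 237 lower, against 263 and 51, and 358 and 690, against 57 and 205, on the array labelled Bcl-2. The value table, made from the same processed signals, gave 1132 and 145, and 274 and 831. For the array labelled Bcl-2 its second column was divided by its first, as that column is the product of both ratios. Undivided, the second column was 1.29 for Mt1 and 0.903 and 0.948 for the probes of Mt2A. An offset of 10 gave 445 and 91, and 76 and 271. Median centring moved the median of all genes by 0.14 on the withdrawal array and gave 473 and 34, and 48 and 271; the value table moved it by 0.13. Of called genes, 83.8% were higher on the withdrawal array (93.3% with median centring), and 21.8% on the other (34.2% with the Feature Extraction ratio). The zinc list median ran from -0.02 to 0.19 and from -0.21 to -0.03. No paired analysis was possible because each comparison has 1 array. Dim genes are limited by signal over background.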
